A study of Homo sapiens with 27 samples.

Results

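The comparison described here sets 4 libraries in which Cas9 was directed to HPRT1 against 7 negative control libraries of the same experiment set, labelled set B. The 11 libraries were taken by their titles from the 27 of the series, and every gene of the count table was compared. The series measured the 3' ends of messenger RNA in teloHAEC cells, which are aortic endothelium from a human donor made immortal with telomerase and sold as a line. In the HPRT-targeted group, Cas9 protein with the HPRT positive control crRNA of a commercial kit was electroporated into 150000 cells per replicate, and RNA was taken 2 days later. The negative control group received Cas9 protein with the non-targeting crRNA of the same kit, so both groups share Cas9, the tracrRNA and the electroporation and differ in the crRNA. The labels name no selection of edited cells and no clones, and neither the share of edited cells nor the guide sequence is given in the sources used here. Nothing states separate cultures for the replicates, so p-values measure the spread between these libraries, which may be technical. Set A holds 4 HPRT-targeted and 4 negative control libraries made with the same crRNAs, and these share no library with set B. The third group of set B, 4 libraries with guides flanking an enhancer of LDAH, entered the fit to estimate the spread. The SMAD3 deletion libraries of set A entered the fit of set A in the same way.

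HPRT1 encodes hypoxanthine phosphoribosyltransferase, the enzyme that recycles hypoxanthine and guanine into purine nucleotides, and cells without it make purines from ribose phosphate instead. A Cas9 cut is a double-strand break, which is sensed by kinases such as ATM and the DNA-dependent protein kinase and can stabilise the transcription factor p53. p53 activates genes of its own feedback loop (MDM2), of cell cycle arrest (CDKN1A), of apoptosis and of DNA repair. The CDKN1A product, p21, blocks cyclin-dependent kinases, after which genes of S phase and mitosis are repressed.

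Total counts ran from 3841246 to 5954962 in the HPRT-targeted libraries and from 4579815 to 6414050 in the negative control libraries. Levels are given in CPM, a gene's count relative to the library's total after TMM scaling. The upper limit behind a count of 0 (3 counts) was 0.504 to 0.781 CPM in HPRT-targeted and 0.468 to 0.655 CPM in negative control libraries, counting error only. HPRT-targeted replicates 2 and 4 and negative control replicates 6 and 7 stood apart from the other libraries across genes. Their median correlation with the rest of set B was 0.858 to 0.877, against 0.938 to 0.953 in the other 7 compared libraries, and the share of counts from ribosomal protein genes was 14.7% to 17%, against 10.2% to 11.2%. Their levels followed transcript length, an analysis added after the values had been seen. For 1845 genes whose longest annotated transcript is under 2000 bases, the median level was higher by 0.37 on the log2 scale in HPRT-targeted replicates 2 and 4 than in replicates 1 and 3. The same difference was 0.36 between negative control replicates 6 and 7 and replicates 1 to 5. For 788 genes with a transcript of 8000 bases or more, the differences were -0.75 in the HPRT-targeted group and -0.62 in the negative control group. The comparison of the groups followed length too: the median log2 fold change of HPRT-targeted over negative control libraries was 0.09 for transcripts under 2000 bases and -0.14 for those of 8000 bases or more with all libraries. Without the libraries that stand apart these medians were 0.0030 and 0.03, and among the 4 alone they were 0.03 and -0.0037. Libraries of this kind make up 2 of 4 in the HPRT-targeted and 2 of 7 in the negative control group, and LDAH deletion replicate 4, with a correlation of 0.879 and a ribosomal protein share of 17.1%, is another in set B. Values given without the libraries that stand apart leave out all 5, and values among them come from the 4 compared libraries.

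**Figure D1:**
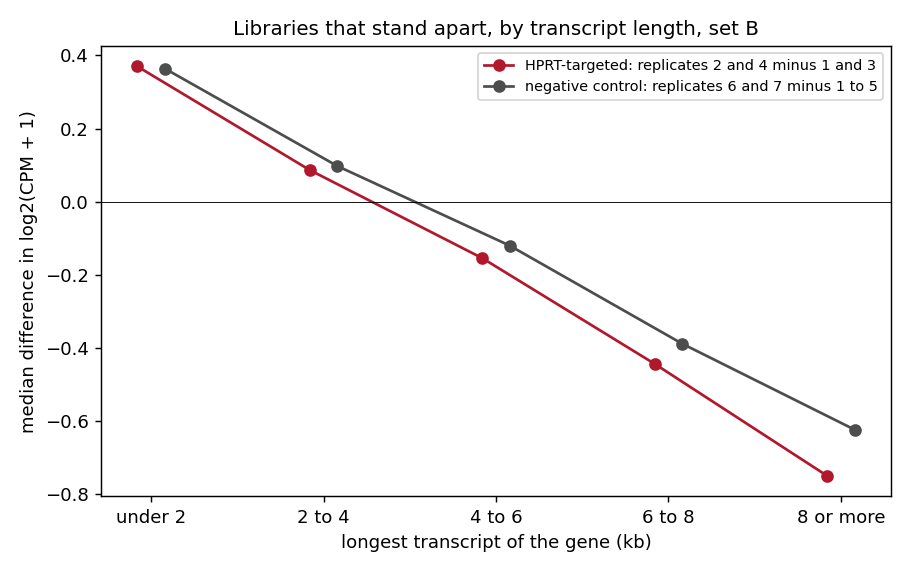
Median difference in log2(CPM + 1) between the libraries that stand apart and the others of the same group (vertical axis) for genes binned by longest transcript in kilobases (horizontal axis), for HPRT-targeted (red) and negative control libraries (grey) of set B. Both lines run from above 0.3 for transcripts under 2 kb to below -0.6 for those of 8 kb or more.

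Of 30 endothelial identity genes, 30 passed the filter on low counts, the defining markers among them. PECAM1, a junction adhesion molecule, stood at 316 CPM in HPRT-targeted and 394 CPM in negative control libraries, and CDH5, the endothelial cadherin, at 239.8 CPM in HPRT-targeted and 259.5 CPM in negative control libraries. Of 9 blood cell markers 8 were not in the count table, PTPRC among them, and CD14 was at 1.37 CPM in HPRT-targeted and 0.566 CPM in negative control libraries. Of 8 epithelial markers, EPCAM and CDH1 were not in the table, while the keratin genes KRT8, KRT18 and KRT19 were, with means of 33.8 to 576 CPM in the HPRT-targeted and 40.5 to 512 CPM in the negative control libraries. In bulk RNA, fewer cells of a kind and less RNA per cell cannot be told apart.

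HPRT1 itself (ENSG00000165704; chromosome X, 134460153 to 134520513, plus strand, GRCh38) was measured first. It stood at 25.6, 48.9, 41.7 and 56.7 CPM in HPRT-targeted replicates 1 to 4. In the negative control libraries the lowest value was 36.9, the median 40.3 and the highest 95.6 CPM. The groups overlapped, and the highest value of each came from a library that stands apart, HPRT-targeted replicate 4 and negative control replicate 7. HPRT-targeted libraries averaged 43.2 ± 13.2 CPM (SD, n = 4), against 50.9 ± 21.9 CPM (SD, n = 7) for the negative control. On the log2 scale the fold change came to -0.23 ± 0.33 (SE; 95% interval -0.92 to 0.46), and a two-sided exact permutation test gave p = 0.545, where 330 arrangements allow 0.00303 at the lowest. Without negative control replicate 7 the fold change was -0.00, without the libraries that stand apart it was -0.21 ± 0.24, and among the 4 compared ones alone it was -0.60. The cut position is not given in the sources used here, and a 3' end count need not fall after a small insertion or deletion, so this level neither measures editing nor checks the labels. In set A, HPRT1 was at 29.46, 29.99, 42.2 and 28.05 CPM in HPRT-targeted libraries, against 34.68, 37.22, 38.75 and 52.77 CPM in negative control libraries. The groups overlapped there only through HPRT-targeted replicate 3, which stands apart. The fold change of HPRT1 in set A was -0.33 ± 0.21, with an unadjusted p of 0.138 in edgeR's quasi-likelihood test. A fit without this replicate and without SMAD3 deletion replicate 4, which also stands apart, gave -0.48 ± 0.14. There edgeR's quasi-likelihood test across all genes gave an unadjusted p of 0.00257.

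Around HPRT1, 13 genes within 1 Mb were in the table and 10 passed the filter on low counts. The direction was up for 6 and down for 4, within -1.54 to 0.35 on the log2 scale, and 0 had an unadjusted p under 0.05, beside 1.75% of all genes. PHF6, a chromatin protein gene that lies 31362 bp before HPRT1, was at 73.5, 95.7, 73.5 and 88.75 CPM in HPRT-targeted libraries, against a lowest value of 43.2, a median of 65.7 and a highest of 82.7 CPM in negative control libraries. Its log2 fold change of 0.31 ± 0.20 in set B and that of -0.21 ± 0.11 in set A differed with an unadjusted p of 0.0423 in edgeR's quasi-likelihood test and an adjusted p of 1. PABIR2, a gene whose span overlaps its neighbour PABIR3, averaged 10.1 ± 2.60 CPM in HPRT-targeted and 13.9 ± 4.16 CPM in negative control libraries (n = 4 and 7), a log2 fold change of -0.46 ± 0.33. It was -0.81 ± 0.36 without the libraries that stand apart and 0.03 among them alone. RTL8C, a gene derived from a retrotransposon, stood at 112.7 ± 28.8 CPM in HPRT-targeted and 121.5 ± 28.8 CPM in negative control libraries. PABIR3, SMIM10, RTL8B, ZNF75D and ZNF449 averaged under 10 CPM in each group, and their SEs ran from 0.72 to 1.14. MOSPD1, a membrane protein gene, had 0.22 ± 0.35 (-0.47 without the libraries that stand apart), and RTL8A, a relative of RTL8C, had 0.01 ± 0.20.

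The purine genes put the enzyme in its pathway. Of 29, 27 were tested, 11 higher and 16 lower, with a median log2 fold change of -0.06 against -0.02 over all genes tested, and 0 had an unadjusted p under 0.05. With the libraries that stand apart left out, 8 were higher (median -0.09), and among them alone 12 were (median -0.08). Among the salvage enzymes, APRT, which recycles adenine, stood at 153, 153, 148 and 219 CPM in HPRT-targeted libraries, against 125 to 192 CPM in negative control libraries, a log2 fold change of 0.17 ± 0.18 that was 0.08 without the libraries that stand apart. ADK, the adenosine kinase, had 0.08 ± 0.19, and the deoxynucleoside kinase genes DCK and DGUOK had -0.06 ± 0.50 and -0.07 ± 0.23. Without those libraries ADK was at -0.09, DCK at -0.45 and DGUOK at 0.07. The 10 tested genes of synthesis from ribose phosphate had a median of -0.12, with 3 higher and 7 lower. PPAT, which commits ribose phosphate to purines, had 0.07 ± 0.20 (-0.07 without the libraries that stand apart), PFAS, a later step of the same route, had -0.26 ± 0.20, and PRPSAP2, which binds phosphoribosyl pyrophosphate synthetase, had -0.60 ± 0.40 (-0.25 without them). Of the interconversion enzymes, ADSS2, on the branch to adenine nucleotides, stood at 105.6 ± 17.9 CPM in HPRT-targeted and 124.4 ± 13.4 CPM in negative control libraries. Its log2 fold change was -0.24 ± 0.15 with all libraries and 0.01 ± 0.15 without those that stand apart. GUK1, the guanylate kinase, was at 180.9, 248.5, 152.5 and 316.1 CPM in HPRT-targeted libraries, against 131 to 263.5 CPM in negative control libraries, a fold change of 0.36 ± 0.27 that was 0.21 without the libraries that stand apart. Its highest values in each group were those of the libraries that stand apart.

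Over the 11769 genes tested, 0 (0%) had an adjusted p under 0.05 in edgeR's quasi-likelihood test (adjusted by Benjamini-Hochberg). Without adjustment, 206 genes (1.75%) fell under 0.05, of which 110 were higher (0.935%) and 96 lower (0.816%) in HPRT-targeted libraries. Where no gene differs, a share of about 0.05 is expected, above the 1.75% found. DESeq2 and limma voom with sample quality weights also called 0, with 275 and 331 genes at an unadjusted p under 0.05. In the libraries that do not stand apart, edgeR called 0 of 12153 genes, and 350 (2.88%) had an unadjusted p under 0.05. The coefficient of variation between libraries beyond counting error was 0.441 in set B, and the median SE of a log2 fold change was 0.32. The square of that coefficient, the dispersion, was 0.195, and 0.0617 without the libraries that stand apart. Each gene value that follows therefore lies short of the adjusted threshold, and lists are described by counts and medians.

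Among 41 tested p53 targets, 32 had a positive fold change (78%), beside 46.9% of all genes, and their median log2 fold change was 0.17 beside -0.02. MDM2, RPS27L and GDF15, 3 of 41, were higher at an unadjusted p under 0.05, beside 0.935% of all genes, and 0 passed the adjusted test. With those that stand apart left out, 34 of 41 were higher, with a median of 0.18, and among them alone 24 of 41 were, with a median of 0.13. Summarised per library as the median member's difference from its mean over the negative control, the list stood at 0.18, 0.18, 0.26 and 0.39 in HPRT-targeted libraries. In negative control libraries it ran from -0.14 through a median of -0.03 to 0.29. The groups overlapped through negative control replicate 7, a library that stands apart, at 0.29, and the next highest negative control library was at 0.12.

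MDM2 (ENSG00000135679; chromosome 12, 68808176 to 68850686), whose product degrades p53, had the smallest p of all genes with a mean of at least 10 CPM that were higher. It stood at 229.8, 227.3, 232.6 and 300.8 CPM in HPRT-targeted replicates 1 to 4, against a lowest value of 125.9, a median of 148.9 and a highest of 211.5 CPM in negative control libraries. Every HPRT-targeted library lay above every negative control library, as was so for 12 genes in all (0.102%). Of the 330 arrangements of the libraries 1 has this order, a share of 0.00303, which is larger than the share found. edgeR's quasi-likelihood test put the log2 fold change at 0.64 ± 0.16 (95% interval 0.30 to 0.98), with an unadjusted p of 0.00108 and an adjusted p of 0.999. It was 0.59 ± 0.16 without the libraries that stand apart and 0.62 among them alone, and with 1 library left out it ran from 0.53 to 0.72. The other feedback genes were less even: PPM1D, a phosphatase that dampens p53, had 0.14 ± 0.39, and CCNG1, a cyclin G gene, had -0.18 ± 0.33. PPM1D was 0.50 without the libraries that stand apart and -0.51 among them, and CCNG1 was 0.27 and -0.93.

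All 10 tested arrest genes had a positive fold change, with a median of 0.29. Without the libraries that stand apart all 10 were again positive (median 0.18), and among them alone 7 of 10 were (median 0.19). CDKN1A (chromosome 6, 36676460 to 36687339), which encodes p21, was at 491, 439, 417 and 546 CPM in HPRT-targeted libraries, against a lowest value of 249, a median of 293 and a highest of 518 CPM in negative control libraries. The HPRT-targeted values lay above the negative control median, and the groups overlapped through negative control replicates 1, 6 and 7. Its log2 fold change was 0.44 ± 0.23 with an unadjusted p of 0.0706 in edgeR's quasi-likelihood test. It was 0.59 ± 0.17 without the libraries that stand apart, and among them alone it was 0.06. ZMAT3, an RNA-binding p53 target, followed the same course, at 324.5 ± 38.8 CPM in HPRT-targeted and 267.7 ± 75.02 CPM in negative control libraries. The fold change of ZMAT3 was 0.28 ± 0.21 with all libraries, 0.44 without those that stand apart and -0.05 among them. SERTAD1, a regulator of cyclin-dependent kinase 4, went the other way: 0.57 ± 0.28 with all libraries, 0.12 without those that stand apart and 0.58 among them. BTG2, an antiproliferative gene, had 0.44 ± 0.44, and the sestrin genes SESN1 and SESN2, antioxidant regulators, had 0.17 ± 0.27 (0.03 without the libraries that stand apart) and 0.17 ± 0.23.

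**Figure D2:**
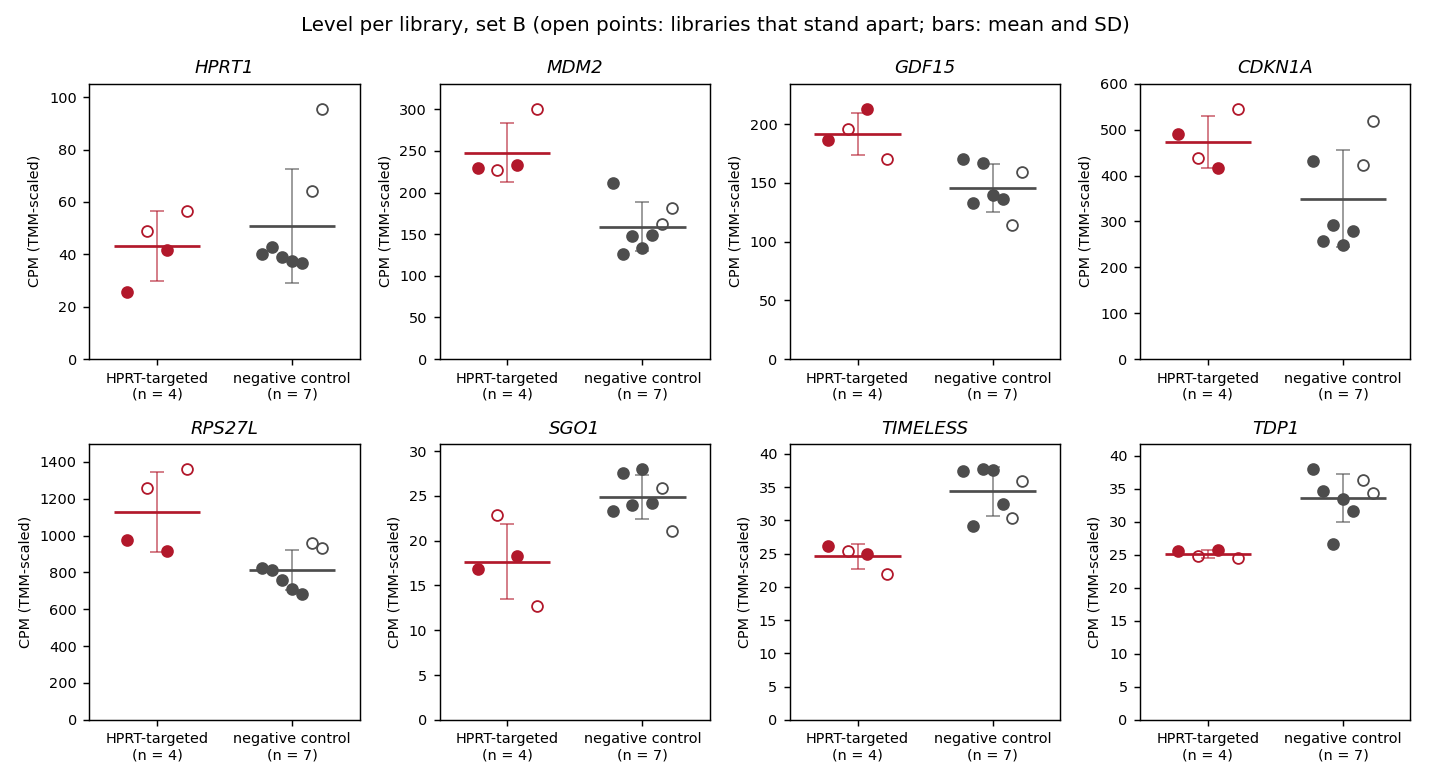
CPM, scaled by TMM factors, of 8 genes in the 4 HPRT-targeted (red, left) and 7 negative control (grey, right) libraries of set B; points are libraries, open where they stand apart, lines are means and bars are SDs. MDM2 and GDF15 lie above, and TIMELESS and TDP1 below, every negative control library, while HPRT1 overlaps.

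Of 16 tested apoptosis genes, 13 were higher and 3 lower, with a median of 0.21. With the libraries that stand apart left out, 12 were higher (median 0.16), and among them alone 9 were (median 0.115). RPS27L (chromosome 15, 63125872 to 63158021), a ribosomal protein paralogue that p53 activates, stood at 976.5, 1260, 916.7 and 1359 CPM in HPRT-targeted libraries, against 680.2 to 961.9 CPM with a median of 813.9 CPM in negative control libraries. HPRT-targeted replicate 3 and negative control replicates 6 and 7 were the libraries in which the groups overlapped. The log2 fold change was 0.47 ± 0.16 (edgeR's unadjusted p = 0.00784, adjusted p = 0.999), and 0.32 ± 0.12 without the libraries that stand apart. Its annotated span overlaps LACTB, so the counts of these genes are uncertain, and ribosomal protein genes took a larger share of the libraries that stand apart; the part of either was not tested. EDA2R, a receptor of the tumour necrosis factor family, was at 15.5, 14.2, 11.5 and 10.7 CPM in HPRT-targeted libraries, against 6.64 to 12.1 CPM in negative control libraries. For EDA2R the fold change was 0.52 ± 0.25, with 0.51 and 0.62 without and among the libraries that stand apart. BBC3, the gene of the mitochondrial death protein PUMA, averaged 81.5 ± 15.02 CPM in HPRT-targeted and 67.55 ± 16.1 CPM in negative control libraries, a fold change of 0.27 ± 0.20 (0.44 without the libraries that stand apart). BAX, which permeabilises mitochondria, had 0.24 ± 0.25, PMAIP1, the gene of NOXA, had 0.06 ± 0.25, and the death receptor genes FAS and TNFRSF10B had 0.19 ± 0.34 and -0.07 ± 0.14. Among the libraries that stand apart FAS was at -0.16 and PMAIP1 at -0.17. DRAM1, an autophagy gene, had 0.31 ± 0.22, and 0.15 without those libraries.

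The repair, metabolic and secreted targets were divided, 7 of 12 higher and 5 lower, with a median of 0.05. Leaving out the libraries that stand apart, 9 were higher (median 0.18), and among them alone 7 were (median 0.08). GDF15 (chromosome 19, 18374731 to 18389176), a secreted stress factor, stood at 186.9, 196.1, 213.2 and 170.6 CPM in HPRT-targeted libraries. In negative control libraries the lowest value was 114.2, the median 139.5 and the highest 170.3 CPM. The groups did not overlap, with HPRT-targeted replicate 4 and negative control replicate 1 nearly level. The fold change was 0.40 ± 0.15 (edgeR's unadjusted p = 0.0196, adjusted p = 0.999), and 0.42 both without and among the libraries that stand apart. TIGAR, a regulator of glycolysis, had 0.29 ± 0.19, or 0.25 and 0.27 without and among the libraries that stand apart. RRM2B, a ribonucleotide reductase subunit, averaged 130.7 ± 11.3 CPM in HPRT-targeted and 110.5 ± 27.7 CPM in negative control libraries, a fold change of 0.24 ± 0.19 that was 0.38 without and -0.11 among the libraries that stand apart. FDXR, a mitochondrial reductase gene, had 0.25 ± 0.30, and -0.07 without those libraries. The nucleotide excision repair genes DDB2 and XPC had 0.07 ± 0.20 and -0.08 ± 0.37, and -0.08 and 0.05 without those libraries.

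**Figure D3:**
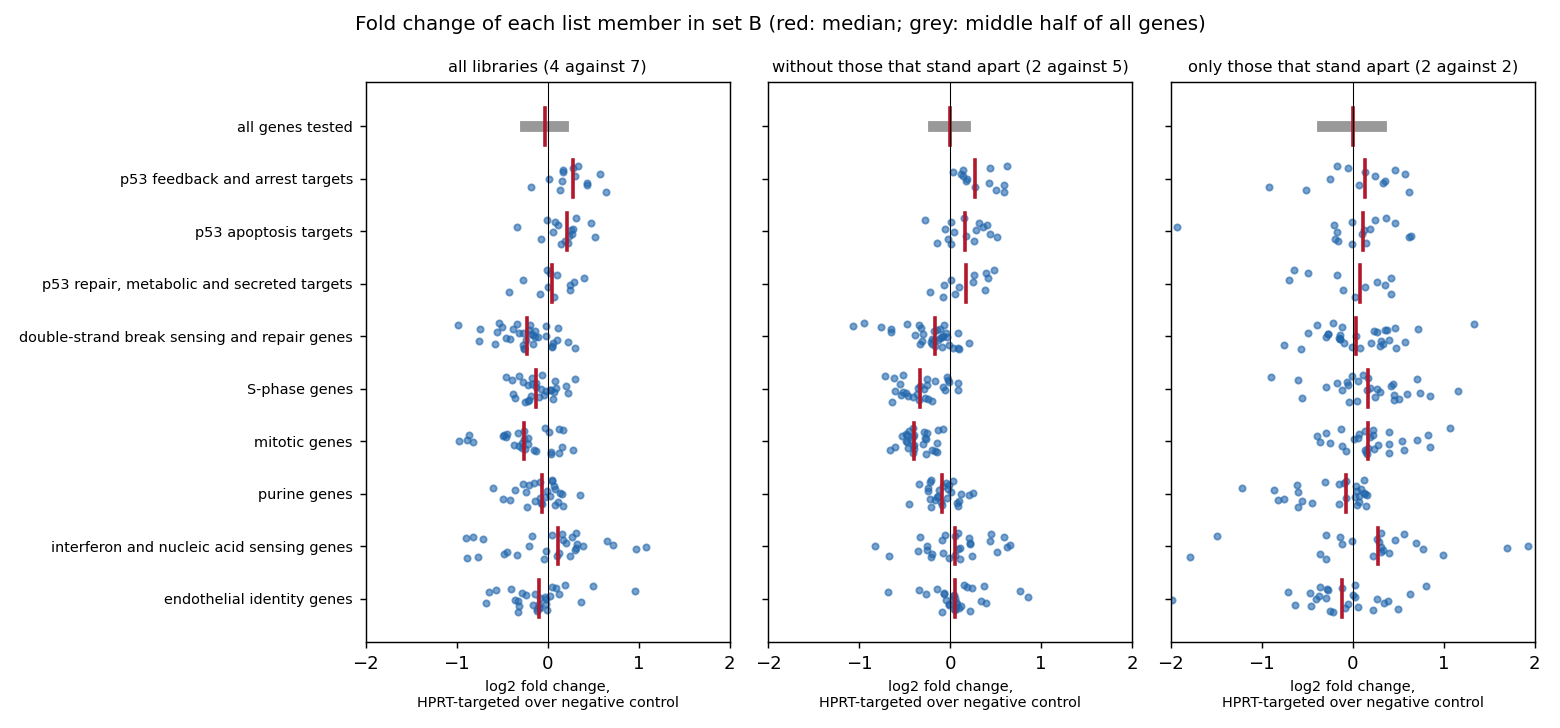
Log2 fold change of HPRT-targeted over negative control libraries (horizontal axis) for each tested member of 9 gene lists (points) in set B, with all libraries, without those that stand apart and among those alone; red marks are medians, and the grey bar spans the middle 50% of all genes. The p53 medians lie right of 0 in each panel, while the S-phase and mitotic medians lie left of it in the left and middle panels and right of it in the right panel; 1, 2 and 8 members lie beyond the axes of the panels from left to right.

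p53 binds as a tetramer to paired sites whose cores often read CAAG, CATG or CTTG, and the promoter windows of its targets were searched for these letters. RefSeq windows (GRCh38.p14, from 250 bases before to 50 after a gene's start) were found for 33 of the 41 tested members, as 46 windows. The motifs were the 9 pairs of those cores with 6 bases between them, such as CATGNNNNNNCAAG, a set that reads the same on both strands. A pair was present in 5 of 33 members (15.2%), against 285 of 9452 tested genes with a window (3.02%) and 1097 of 27305 genes in all (4.02%). The members were GDF15, TRIAP1, AEN, FAS and SESN1, and these letters are not in the 4 windows of MDM2, nor in the 1 window each of CDKN1A and RPS27L. The match is a description of letters, and no binding was measured. Sites outside these windows, with other cores or with another spacing, were not searched, so a gene without the letters may still hold a site. GDF15, the member whose levels did not overlap, is printed first, in full, with the pair in capitals, its first base 31 after the start site; the windows of TRIAP1 (an apoptosis inhibitor) and AEN (a nuclease of apoptosis) follow, and for FAS and SESN1 the pair alone.
GDF15, chr19:18385908-18386207, plus strand: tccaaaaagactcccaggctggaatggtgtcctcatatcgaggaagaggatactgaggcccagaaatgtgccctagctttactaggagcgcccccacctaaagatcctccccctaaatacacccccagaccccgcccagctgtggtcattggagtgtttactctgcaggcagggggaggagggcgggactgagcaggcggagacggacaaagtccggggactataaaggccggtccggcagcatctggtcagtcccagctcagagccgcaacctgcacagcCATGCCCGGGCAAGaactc
TRIAP1, chr12:120446335-120446634, minus strand: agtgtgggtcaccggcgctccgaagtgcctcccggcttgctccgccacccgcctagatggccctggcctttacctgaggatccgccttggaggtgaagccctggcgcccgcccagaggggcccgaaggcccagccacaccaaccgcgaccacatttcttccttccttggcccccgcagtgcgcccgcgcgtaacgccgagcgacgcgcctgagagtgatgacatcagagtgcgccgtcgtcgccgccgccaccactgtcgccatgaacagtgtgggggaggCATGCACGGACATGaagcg
AEN, chr15:88621090-88621389, plus strand: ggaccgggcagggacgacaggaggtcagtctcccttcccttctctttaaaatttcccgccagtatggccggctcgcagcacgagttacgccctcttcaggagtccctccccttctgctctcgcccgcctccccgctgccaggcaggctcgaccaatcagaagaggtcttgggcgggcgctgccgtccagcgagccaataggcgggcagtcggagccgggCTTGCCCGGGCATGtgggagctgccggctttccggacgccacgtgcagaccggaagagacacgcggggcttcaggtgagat
FAS, window chr10:88991181-88991480, plus strand, first base 119 before the start: CAAGCCCTGACAAG
SESN1, window chr6:109008939-109009238, minus strand, first base 46 before the start: CAAGTCTCCACAAG
All 5 of these genes had a positive log2 fold change with all libraries, as had 32 of the 41 tested p53 targets. Beside the 0.40 ± 0.15 of GDF15, TRIAP1 had 0.28 ± 0.27 and AEN 0.23 ± 0.28, and without the libraries that stand apart TRIAP1 was at -0.05 and AEN at -0.14. TRIAP1 was at 96.5, 217, 92.0 and 168 CPM in HPRT-targeted libraries, against 84.05 to 186 CPM in negative control libraries, its high values falling in the libraries that stand apart.

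Among 58 tested genes of S phase and mitosis, 41 had a negative fold change (70.7%) and 17 a positive one, beside 53.1% negative over all genes, and their median log2 fold change was -0.18. Without the libraries that stand apart, 56 of 58 were lower, with a median of -0.36, and among those libraries alone 17 were lower and 41 higher, with a median of 0.17. The direction of this list thus turned with the libraries used. SGO1, 1 of 58, was lower at an unadjusted p under 0.05, beside 0.816% of all genes. Per library, the list stood at -0.05, -0.08, -0.32 and -0.14 in HPRT-targeted replicates 1 to 4, against a lowest value of -0.55, a median of 0.06 and a highest of 0.26 in negative control libraries. The lowest of the 11 libraries was negative control replicate 7, which stands apart, and HPRT-targeted replicate 1 was level with negative control replicate 1.

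**Figure D4:**
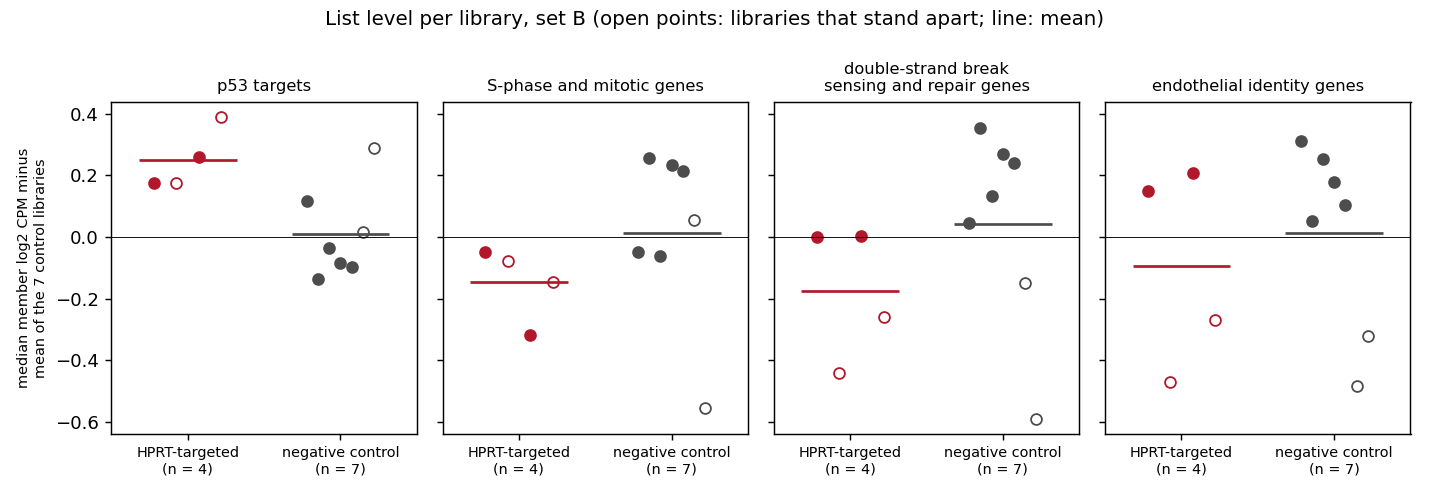
List level per library of set B, as the median over members of log2 CPM minus the member's mean over the 7 negative control libraries, for 4 gene lists; HPRT-targeted libraries are red (left), negative control libraries grey (right), open points stand apart and lines are means. All 4 HPRT-targeted libraries lie at 0.18 or above for p53 targets, and negative control replicate 7 is the lowest point for S-phase and mitotic genes and for repair genes.

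In mitosis, all 11 spindle and kinetochore genes had a negative fold change, with a median of -0.37. With the libraries that stand apart left out, all 11 were again negative (median -0.40), while among those libraries alone 7 of 11 were positive (median 0.06). SGO1, the guardian of centromeric cohesion (chromosome 3, 20160593 to 20186292), was at 16.8, 22.9, 18.3 and 12.7 CPM in HPRT-targeted libraries, against a lowest value of 21.0, a median of 24.2 and a highest of 27.96 CPM in negative control libraries. HPRT-targeted replicate 2 was the library that overlapped. The fold change was -0.49 ± 0.19 (edgeR's unadjusted p = 0.0208, adjusted p = 0.999), with -0.53 and -0.39 without and among the libraries that stand apart. NUSAP1, a spindle protein gene, averaged 128.3 ± 28.3 CPM in HPRT-targeted and 159 ± 16.6 CPM in negative control libraries, a fold change of -0.31 ± 0.16. TMPO, a nuclear lamina gene, had -0.32 ± 0.15, with -0.26 and -0.29 without and among those libraries, and its span overlaps an antisense gene. HMGB2, a chromatin protein of dividing cells, stood at 65.2, 54.3, 87.3 and 63.8 CPM in HPRT-targeted libraries, against 41.3 to 127.5 CPM in negative control libraries. The HMGB2 fold change was -0.45 ± 0.25, -0.49 without the libraries that stand apart and 0.07 among them.

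CENPE, CENPF and MKI67, chosen after their values were seen, had the most negative fold changes of the mitotic list and its largest SEs. CENPE, a kinetochore motor gene with a transcript of 8612 bases, was at 151, 1.73, 104 and 2.79 CPM in HPRT-targeted replicates 1 to 4. In negative control libraries it was at 110 to 223 CPM in replicates 1 to 5, and at 0.201 and 2.88 CPM in replicates 6 and 7. MKI67, the proliferation antigen gene with a transcript of 12678 bases, was at 241, 13.7, 178 and 2.58 CPM in HPRT-targeted libraries, against 195 to 382 CPM in negative control replicates 1 to 5 and 5.22 and 3.98 CPM in replicates 6 and 7. In each group the low values of CENPE and MKI67 were those of the libraries that stand apart. CCNB1, a mitotic cyclin gene, was not low there, at 122, 266, 118 and 217 CPM in HPRT-targeted libraries and at 124 to 242 CPM in negative control libraries. Its higher HPRT-targeted values were those of the libraries that stand apart. The log2 fold changes of CENPE, CENPF and MKI67 were -0.97 ± 1.23, -0.89 ± 1.07 and -0.86 ± 1.16 with all libraries, and -0.48, -0.43 and -0.40 without those that stand apart. Among those libraries alone they were 0.54, 0.71 and 0.82.

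Of the kinases and cyclins of mitosis, 5 of 9 were higher with all libraries, 0 of 9 without those that stand apart, and 8 of 9 among them alone. PLK1, a kinase of mitotic entry, had -0.15 ± 0.24 with all libraries, -0.66 without those that stand apart and 0.14 among them. AURKB, a kinase of chromosome segregation, was at 64.2, 136, 53.9 and 81.7 CPM in HPRT-targeted libraries, against 61.1 to 80.5 CPM in negative control libraries, its highest value falling in HPRT-targeted replicate 2. CDK1, the kinase of cell division, had 0.04 ± 0.20 and -0.26 without those libraries.

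Among S-phase genes 20 of 29 were lower, with a median of -0.13 (27 of 29 and -0.33 without the libraries that stand apart), while among those libraries alone 19 of 29 were higher, with a median of 0.17. MCM6, a helicase subunit loaded at replication origins, was at 37.3, 36.2, 35.25 and 35.24 CPM in HPRT-targeted libraries, against a lowest value of 31.8, a median of 44.7 and a highest of 64.2 CPM in negative control libraries. MCM6 had a fold change of -0.36 ± 0.18, with -0.27 and -0.56 without and among the libraries that stand apart. The other helicase genes MCM2, MCM3, MCM4, MCM5 and MCM7 ran from -0.25 to 0.06, and from -0.64 to -0.20 without the libraries that stand apart. Of 13 tested genes of replication licensing, 9 were lower with all libraries and 12 without those that stand apart. Among those libraries alone 11 were higher, with a median of 0.45. CCNE2, a G1 cyclin gene, had -0.31 ± 0.28, or -0.71 ± 0.29 without the libraries that stand apart. RFC2, a clamp loader subunit, had 0.30 ± 0.27 with all libraries and -0.26 without those that stand apart. PCNA, the sliding clamp, had 0.02 ± 0.18 and -0.05 without them.

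Of 34 genes of double-strand break sensing and repair, 27 had a negative fold change, the median was -0.22, and 0 had an unadjusted p under 0.05. Leaving out the libraries that stand apart, 29 of 34 were negative (median -0.17), and among those libraries 16 of 33 were (median 0.03). The homologous recombination genes, which copy a sister chromatid, were lower in 8 of 9, with a median of -0.38. Without the libraries that stand apart 9 of 9 were lower (median -0.47), while among those libraries alone 5 of 9 were higher (median 0.38). EXO1, the nuclease that resects broken ends, was at 5.95, 10.97, 6.49 and 9.67 CPM in HPRT-targeted libraries, against a lowest value of 8.94, a median of 10.6 and a highest of 17.4 CPM in negative control libraries, a fold change of -0.54 ± 0.31 that was -0.94 without the libraries that stand apart. BRCA1, the recombination mediator, averaged 29.1 ± 13.6 CPM in HPRT-targeted and 48.8 ± 25.4 CPM in negative control libraries. BRCA1 had a fold change of -0.75 ± 0.58, -0.65 ± 0.25 without and 0.38 among the libraries that stand apart. All 10 end joining genes, which ligate cut ends without a template, were negative with a median of -0.17 (9 of 10 without the libraries that stand apart, 6 of 10 among them). The Ku genes XRCC6 and XRCC5, whose products hold broken ends, had -0.02 ± 0.13 and -0.14 ± 0.14. Among the sensors, ATR, the kinase of resected DNA, had 0.30 ± 0.21, and ATM, the kinase of double-strand breaks, had -0.26 ± 0.37. With the libraries that stand apart left out, ATR was at 0.09 and ATM at 0.10.

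Of 30 interferon and nucleic acid sensing genes, which respond to foreign or misplaced nucleic acids, 17 were higher, with a median of 0.12. Leaving out the libraries that stand apart, 16 of 30 were higher (median 0.05), and among them alone 15 of 26 were (median 0.28). IFI6, an interferon-induced gene, was at 21.2, 14.6, 11.8 and 23.2 CPM in HPRT-targeted libraries, against a lowest value of 9.27, a median of 10.2 and a highest of 13.1 CPM in negative control libraries. HPRT-targeted replicate 3 overlapped with the negative control, and the fold change was 0.72 ± 0.29 (edgeR's unadjusted p = 0.0227, adjusted p = 0.999) in set B and -0.14 in set A. ISG15 and IFI27, also of this list, had 0.65 ± 0.39 and 0.32 ± 0.235 in set B and 0.52 and 0.20 in set A. Of 28 members tested in each set, 14 had the same sign. CGAS, a sensor of DNA in the cytosol, was low, at 3.85 CPM in HPRT-targeted and 6.48 CPM in negative control libraries, and its adaptor gene STING1 had a fold change of 0.24 ± 0.16. Of 30 endothelial identity genes, 8 were higher and 22 lower with a median of -0.09, and without the libraries that stand apart 20 were higher with a median of 0.05, and among them alone 12 of 29 with a median of -0.12. EGFL7, a secreted endothelial factor whose span overlaps HSPC324, averaged 82.4 ± 25.5 CPM in HPRT-targeted and 58.4 ± 12.5 CPM in negative control libraries, a fold change of 0.50 ± 0.21 (edgeR's unadjusted p = 0.031, adjusted p = 0.999) in set B and -0.08 in set A. The 11 immediate early genes, first to respond to stimulation, had a median of -0.26 with 2 higher, and -0.07 without the libraries that stand apart. The 22 stress and unfolded protein response genes had a median of -0.11, the 11 endothelial inflammatory genes -0.01, the 8 mesenchymal markers -0.10, the 3 epithelial markers 0.06 and the 13 mitochondrially encoded genes -0.07, each with 0 members at an unadjusted p under 0.05. Without the libraries that stand apart the medians were 0.03 for the stress, 0.02 for the inflammatory, 0.11 for the mesenchymal, 0.0020 for the epithelial and 0.07 for the mitochondrially encoded genes.

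Among the 10 genes with the smallest p that were higher, MDM2 and RPS27L are described above. PRKCE, a protein kinase C gene, was at 28.2, 51.4, 31.1 and 56.3 CPM in HPRT-targeted libraries, against 23.4 to 29.9 CPM in negative control libraries, a fold change of 0.68 ± 0.20 that was 0.21 without and 0.97 among the libraries that stand apart. TNKS, the poly(ADP-ribose) polymerase tankyrase, was at 46.1, 38.5, 59.03 and 43.6 CPM in HPRT-targeted libraries, against 26.98 to 37.2 CPM in negative control libraries. The groups did not overlap, and its fold change was 0.55 ± 0.18, with 0.67 and 0.48 without and among those libraries. WDFY1, an endosomal adaptor gene, had 0.50 ± 0.16 with 0.39 and 0.57, and RNF169, a ubiquitin ligase that acts at double-strand breaks, had 0.59 ± 0.20 with 0.51 and 0.53. VPS16, a vesicle tethering subunit, and MRPL23, a mitochondrial ribosomal protein gene, had 0.85 ± 0.26 and 0.82 ± 0.28. With the libraries that stand apart left out, VPS16 was at 0.61 and MRPL23 at 0.36, and among them at 1.04 and 1.13. The noncoding genes PPP1R14B-AS1 and GIHCG had 0.88 ± 0.27 and 1.13 ± 0.35, which were 0.57 and 0.53 without those libraries and 1.40 and 1.31 among them. Their spans and those of VPS16, TNKS and RNF169 overlap other annotated genes, so part of their counts could belong to these.

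Among the 10 that were lower, 4 lay below every negative control library, as was so for 21 genes in all (0.178%). Random arrangements of the libraries would give a larger share, 0.00303. TIMELESS, which stabilises replication forks, was at 26.1, 25.4, 24.9 and 21.9 CPM in HPRT-targeted libraries, against a lowest value of 29.1, a median of 35.9 and a highest of 37.7 CPM in negative control libraries. TIMELESS had a fold change of -0.48 ± 0.17 (edgeR's unadjusted p = 0.0134, adjusted p = 0.999), -0.45 and -0.48 without and among the libraries that stand apart, and -0.20 in set A. TDP1, which removes protein adducts from broken DNA ends, was at 25.6, 24.8, 25.8 and 24.5 CPM in HPRT-targeted libraries, against a lowest value of 26.6, a median of 34.3 and a highest of 38.0 CPM in negative control libraries. TDP1 had a fold change of -0.41 ± 0.15 (edgeR's unadjusted p = 0.0156, adjusted p = 0.999) in set B and 0.06 in set A. RILPL2, a regulator of transport into cilia, averaged 14.95 ± 1.70 CPM in HPRT-targeted and 26.4 ± 5.31 CPM in negative control libraries, and EDC3, an mRNA decapping gene, averaged 6.68 ± 1.54 CPM in HPRT-targeted and 12.4 ± 2.38 CPM in negative control libraries. Their fold changes were -0.82 ± 0.28 and -0.89 ± 0.27 in set B, and 0.04 and 0.13 in set A. HAUS3, a spindle microtubule gene, had -0.89 ± 0.32, CMAS, a sialic acid enzyme gene, had -0.47 ± 0.16, and SCRN2 had -0.82 ± 0.29. Leaving out the libraries that stand apart, these were -0.55, -0.23 and -0.64, and among them -1.42, -0.77 and -1.21. DZIP3, a ubiquitin ligase gene, and MCCC1, a leucine catabolism gene, had -1.29 ± 0.48 and -1.02 ± 0.38, which were -0.61 and -0.26 without those libraries and -2.44 and -2.43 among them. FGD5-AS1, a noncoding gene, had -0.43 ± 0.15. The spans of EDC3, HAUS3, SCRN2 and FGD5-AS1 overlap other annotated genes.

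Set A gave the same comparison in other libraries, 4 HPRT-targeted against 4 negative control, with 1 that stands apart, HPRT-targeted replicate 3. Its fit also held the SMAD3 deletion libraries, of which replicate 4 stands apart. Set A values without the libraries that stand apart leave out both of these replicates. There edgeR's quasi-likelihood test called 0 of 11467 genes (0%), and 257 had an unadjusted p under 0.05 (2.24%). Over 11330 genes tested in each set, log2 fold changes had a Pearson correlation of 0.23, a Spearman correlation of 0.31 and the same sign in 62.9%. Without the libraries that stand apart the Pearson correlation was 0.09, the Spearman correlation 0.16 and the sign the same in 57.6% of 11484 genes, where genes are not independent replicates. For the 194 genes with an unadjusted p under 0.05 in set B and tested in set A, 124 had the same sign (63.9%), a share near that of all genes. Positive fold changes were found for 37 of 41 p53 targets in set A (median 0.19), and for 35 of 41 (median 0.205) without the libraries that stand apart. Over all genes, set A had 5555 of 11330 positive (median -0.0049), and 5697 of 11574 (median -0.0028) without those libraries. MDM2 was at 221.2, 165.5, 183.1 and 166.6 CPM in HPRT-targeted libraries of set A, against 185.1, 125.2, 116.4 and 133.7 CPM in its negative control libraries. The groups overlapped there through negative control replicate 1. The log2 fold change of CDKN1A was 0.60 in set A beside 0.44 in set B, that of GDF15 was 0.24 beside 0.40, that of RPS27L was 0.30 beside 0.47, and that of EDA2R was -0.18 beside 0.52.

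Negative fold changes were found for 55 of 58 S-phase and mitotic genes in set A (median -0.23), and for 57 of 58 (median -0.28) without the libraries that stand apart. Over all genes, 5775 of 11330 were negative in set A, and 5877 of 11574 without those libraries. SGO1 was at 18.33, 16.05, 18.88 and 16.24 CPM in HPRT-targeted libraries of set A, against 31.18, 26.23, 24.92 and 19.67 CPM in its negative control libraries. Its log2 fold change in set A was -0.55 ± 0.22. MKI67 was at 79.69, 147.4, 12.85 and 120.4 CPM in HPRT-targeted libraries of set A, against 192.6, 303.5, 243.3 and 144.7 CPM in negative control libraries. The low value was that of HPRT-targeted replicate 3, which stands apart. The groups overlapped by HPRT-targeted replicate 2 and negative control replicate 4, and the log2 fold change was -1.30 with all libraries and -0.93 ± 0.33 without those that stand apart. Of the repair genes, 24 of 34 were negative in set A (median -0.11), of the homologous recombination genes 8 of 9, and of the end joining genes 4 of 10. The effects of the 2 sets were compared directly in edgeR's quasi-likelihood test over 12055 genes, fitted to all 27 libraries. Of these genes 0 passed the adjusted test (0%), and 159 had an unadjusted p under 0.05 (1.32%).

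**Figure D5:**
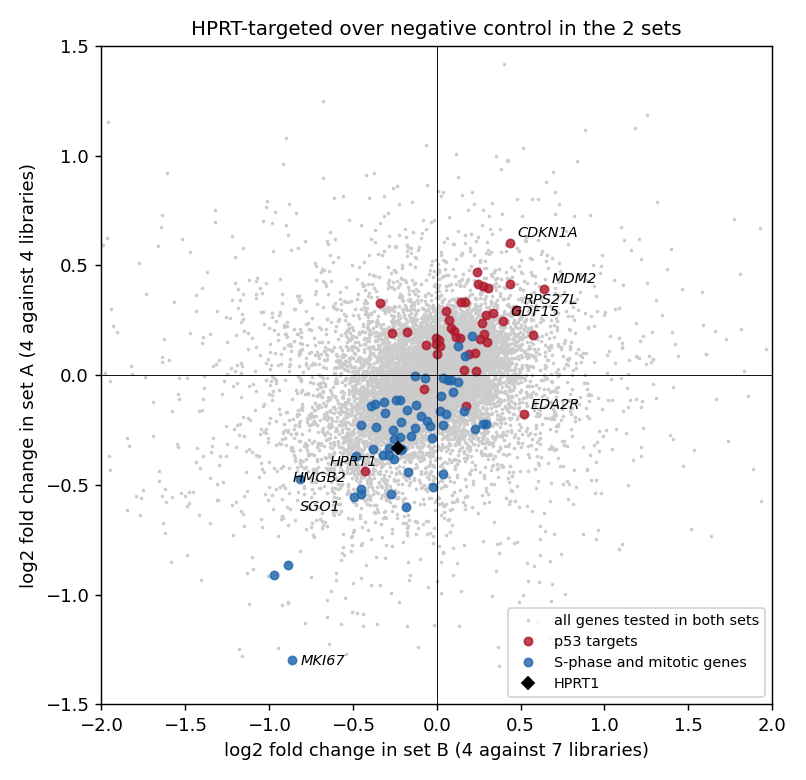
Log2 fold change of HPRT-targeted over negative control libraries in set B (horizontal axis) and set A (vertical axis) for genes tested in each (grey), p53 targets (red), S-phase and mitotic genes (blue) and HPRT1 (black diamond). Most p53 targets lie in the upper right and most S-phase and mitotic genes in the lower left, where MKI67 has the lowest set A value of its list; 36 of 11330 genes lie beyond the axes.

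The LDAH deletion libraries of set B also carry Cas9 cuts, at other sites, and are set against the same 7 negative control libraries, so their values share the controls and are given side by side only. MDM2 had log2 fold changes of 0.64 ± 0.16 with the HPRT guide and 0.68 ± 0.16 in the LDAH deletion, and CDKN1A had 0.44 ± 0.23 and 0.54 ± 0.22. GDF15 had 0.40 ± 0.15 with the HPRT guide and 0.02 ± 0.16 in the LDAH deletion, and SGO1 had -0.49 ± 0.19 and -0.51 ± 0.19. TIMELESS had -0.48 ± 0.17 with the HPRT guide and -0.11 in the LDAH deletion. The p53 targets had a median of 0.17 with the HPRT guide and 0.20 in the LDAH deletion, and the S-phase and mitotic genes had -0.18 and -0.05. LDAH deletion replicate 4 stands apart, and without it the LDAH medians were 0.02 for p53 targets and 0.01 for S-phase and mitotic genes. Without all 5 libraries that stand apart the p53 targets had 0.18 with the HPRT guide and 0.12 in the LDAH deletion, and the S-phase and mitotic genes had -0.36 and -0.04. In the LDAH deletion without its replicate 4, MDM2 was at 0.68 ± 0.18, CDKN1A at 0.34 ± 0.23, GDF15 at -0.04 ± 0.17, SGO1 at -0.46 ± 0.21 and TIMELESS at 0.0025 ± 0.17. Effects of a cut, of a disrupted HPRT1 and of this crRNA cannot be told apart in the set B libraries.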

How the data were processed

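Per the labels' protocols, libraries were made with QuantSeq 3' FWD and read from 1 end over 86 cycles. The authors deposited counts of reads per gene that were not normalized, for 14008 genes in 27 libraries; edgeR 3.24.3 and hg38 appear in the submitters' processing notes, with aligner and annotation not given in the sources used here. Groups follow the titles. From these counts, edgeR 4.0.16 (R 4.3.3; TMM, filterByExpr, quasi-likelihood test, Benjamini-Hochberg at 0.05) was fitted to the 15 libraries of set B, with the SE as |log2 fold change| over the square root of F. DESeq2 1.42.0, limma 3.58.1, other filters and scalings, and leaving out libraries were alternatives, and the edgeR fit was tested on simulated counts. A library stands apart where its median correlation lies over 3 scaled median absolute deviations below its set's median.

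The members and gene lists were chosen with earlier results of these data known. Named by rule were HPRT1, tested genes within 1 Mb and tested salvage genes, whatever their level. Up to 4 members per list and 10 genes per direction with the smallest p, at a mean of at least 10 CPM, were picked too. The picks from the purine, p53, repair, S-phase and mitotic lists were kept. From the other lists the rule kept only picks with an unadjusted p under 0.05 in edgeR's quasi-likelihood test. Other genes and the look at transcript length were chosen after values were seen. So were the alternatives with only the libraries that stand apart and without LDAH deletion replicate 4. No 2 replicates agreed within sampling noise (chi-square per degree of freedom 8.59 to 84.5 over 27 pairs). The median SE was 0.318 on the log2 scale. It holds the spread between libraries (coefficient of variation 0.441 in set B) as well as counting error. Values of some list members are not reported here.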

Additional observations from a re-analysis of the deposited data

Results flagged for a closer look

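Of 134 groups of 4 to 7 libraries examined, 9 held a library far from the others, where chance gives about 1 in 20 groups. In the HPRT-targeted group these were replicate 4 for MDM2 (301 CPM, the nearest library at 233 CPM), for APRT (219 CPM, nearest 153 CPM) and for DGUOK (73.1 CPM, nearest 55.2 CPM), and replicate 2 for CCNE2 (36.0 CPM, nearest 16.1 CPM). HPRT-targeted replicates 2 and 4 are the libraries of that group that stand apart across genes. In the negative control group, replicate 5 was far from the others for PABIR3 (5.64 CPM, nearest 1.17 CPM) and for CMAS (48.3 CPM, nearest 61.2 CPM). Negative control replicate 7 was so for MOSPD1 (23.2 CPM, nearest 15.4 CPM) and for the list level of S-phase and mitotic genes (-0.553, nearest -0.062), and replicate 6 for MCCC1 (31.7 CPM, nearest 20.5 CPM).

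Among 62 genes compared between sets, 4 had every HPRT-targeted library on one side of its negative control mean in set B and every one on the other side in set A. In edgeR's quasi-likelihood test of the difference between sets, 0 of these passed the adjusted test. The difference, set B minus set A on the log2 scale, was 1.39 for GIHCG (1.13 in set B, -0.27 in set A) and 1.24 for MRPL23 (0.82 in set B, -0.43 in set A). It was -1.18 for SCRN2 (-0.82 in set B, 0.36 in set A) and -1.07 for MCCC1 (-1.02 in set B, 0.05 in set A). These genes were named for their small p in set B.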

How the results depend on the processing

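Set B gave 0 called genes under each alternative run. The difference between sets B and A, 0 called, gave 2 with DESeq2 (PTP4A1 and MATR3, at -21.6 and -21.3), 1 without the libraries that stand apart (DPH1), and 0 to 1 with 1 library left out (DPH1 without HPRT-targeted set A replicate 3); the cause was not tested. The S-phase and mitotic median turned to 0.17 among only the libraries that stand apart, and ran from -0.27 to -0.11 with 1 library left out. The p53 median stayed between 0.13 and 0.26, and HPRT1 between -0.60 and -0.00. Some named genes turned sign. Leaving out the libraries that stand apart gave MOSPD1 -0.47, RTL8C 0.0025, ADSS2 0.013, FDXR -0.066, RFC2 -0.26, ADK -0.090 and DGUOK 0.072. Those libraries alone gave PABIR2 0.034, RTL8C 0.064, RTL8A -0.019, ZNF449 -1.35, ZMAT3 -0.052, RRM2B -0.11, BRCA1 0.38 and HMGB2 0.069. limma voom gave MOSPD1 -0.26, RFC2 -0.13, ADK -0.051 and DGUOK 0.046, thinned to the lowest total RTL8A -0.016, and the ZNF449 log2 fold change was -1.552e-05 with DESeq2 size factors. With 1 library left out the ranges were MOSPD1 -0.12 to 0.44, RTL8B -0.40 to 0.76, RTL8C -0.23 to 0.030, RTL8A -0.11 to 0.17, ZNF75D -0.21 to 0.61, ZNF449 -0.93 to 0.41, FDXR -0.022 to 0.42, ADK -0.11 to 0.16, DCK -0.41 to 0.19 and DGUOK -0.19 to 0.091. No paired analysis was run, because the labels state no pairing. The library numbers of the HPRT-targeted and negative control groups alternate in part, and whether this reflects a pairing is not given.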
